A study of Mus musculus with 6 samples.

Results

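Osteopontin (Spp1), fibronectin (Fn1), 4 metalloproteinase genes (Mmp9, Mmp12, Mmp14 and Adam8) and 2 inhibitors of metalloproteinases (Timp1 and Timp2) were followed in RAW264.7 cells, a mouse macrophage line, grown for 3 days on zinc alloys under a calcium phosphate (CaP) coating. These 8 genes were picked by name out of the 54532 genes in the deposited count table, and the set was proposed because Spp1, Mmp9 and Adam8 read higher on the lithium alloy than on CaP Zn. That contrast is therefore described here without a test for any of the 8. The groups were CaP Zn0.8Mn0.1Li, zinc alloyed with manganese and lithium, CaP Zn0.8Mn, zinc alloyed with manganese, and CaP Zn, zinc with neither, with 2 RNA libraries each. All cells shared the line, the coating, the zinc base and the culture time, and cells grown without a zinc alloy were not analysed here. Whether both libraries of an alloy were grown as separate cultures is not stated in the labels, so p-values measure no more than their spread, part or all of which may be technical. In bulk RNA, fewer cells expressing a gene and less RNA per cell cannot be told apart.

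Osteopontin is a secreted, phosphorylated glycoprotein of bone matrix that binds integrins and CD44, and macrophages and osteoclasts make much of it. Metalloproteinases hold a zinc ion in their active site and cut matrix proteins, cytokines or receptors. The TIMP proteins block many matrix metalloproteinases (MMPs) by binding that site, so the mRNA of both sides is usually read together. In macrophages gelatinase B (Mmp9) and macrophage elastase (Mmp12) are secreted, whereas the membrane-bound Mmp14 and the disintegrin Adam8 act at the cell surface.

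For 6 of the 8 genes the RefSeq promoter table (build GRCm38.p6) held a window, and Mmp9 and Fn1 are named only. The 250 bases before the RefSeq start are shown for both genes of the lithium contrast that have one, Spp1 and Adam8, and for the inhibitor gene Timp1, which holds a match to one of the motifs searched. Capitals mark that match, and the windows without capitals held none.
Spp1, chr5:104434861-104435110, plus strand: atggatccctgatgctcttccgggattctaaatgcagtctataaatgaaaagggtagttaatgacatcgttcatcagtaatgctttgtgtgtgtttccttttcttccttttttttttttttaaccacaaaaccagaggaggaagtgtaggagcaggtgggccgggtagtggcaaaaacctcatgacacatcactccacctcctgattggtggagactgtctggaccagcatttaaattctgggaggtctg
Adam8, chr7:139992563-139992812, minus strand: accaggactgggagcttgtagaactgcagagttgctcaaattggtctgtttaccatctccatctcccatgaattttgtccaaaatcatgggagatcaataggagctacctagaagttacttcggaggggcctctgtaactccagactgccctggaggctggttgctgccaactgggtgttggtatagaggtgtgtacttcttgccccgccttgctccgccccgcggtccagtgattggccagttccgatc
Timp1, chrX:20869916-20870165, plus strand: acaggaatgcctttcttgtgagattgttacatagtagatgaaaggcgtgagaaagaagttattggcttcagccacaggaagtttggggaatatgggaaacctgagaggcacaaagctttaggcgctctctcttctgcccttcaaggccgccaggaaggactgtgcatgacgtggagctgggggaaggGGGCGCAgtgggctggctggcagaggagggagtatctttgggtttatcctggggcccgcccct
The motifs were the AP-1 site TGANTCA, the metal response element TGCACNC or TGCGCNC, the E-box CACGTG and the NF-kB site, each searched on both strands. Of 32817 upstream windows in the table, 6.75% held the AP-1 letters, 21.4% a metal response element, 6.02% the E-box and 1.41% the NF-kB site. Timp1 held GGGCGCA, the reverse strand of a metal response element, at bases -63 to -57 from the start. The Timp2 window held GCGCGCA at -154 to -148 and at -135 to -129, although 203 of its 250 bases lie in annotated exons (GENCODE M21), and the second of 2 Mmp12 windows held the AP-1 letters TGAGTCA at -44 to -38. A second Spp1 window, all of it in annotated exons, the first Mmp12 window and the Mmp14 window held no match. These matches describe letters, not bound sites.

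The 6 libraries held 14944070 to 17709290 counts. Cell type markers fitted the labelled line: 8 of 8 macrophage markers were detected in every library, with a summed level of 15072 and 15692 CPM (counts scaled to library size with TMM factors) on CaP Zn0.8Mn0.1Li, 10239 and 16541 on CaP Zn0.8Mn, against 10828 and 14025 on CaP Zn. Most of each sum was Lyz2, at 5861 CPM in CaP Zn0.8Mn replicate 1 and 9182 to 14549 CPM in the other 5 libraries. In that replicate Lyz2, Cd68 and Itgam were lowest of the 6 libraries. Adgre1, Csf1r, Cd14, Fcgr3 and Mpeg1 were highest there, so the list split and its sum is no measure of macrophage content. Of 8 osteoclast markers 7 or 8 were detected per library, with summed levels of 223 to 293 CPM, while the calcitonin receptor gene Calcr, which defines mature osteoclasts, had at most 0.0646 CPM. Of 9 fibroblast and osteoblast markers 3 to 5 were detected, at 8.66 to 17.4 CPM in sum, nearly all of it Runx2, with Col1a2, Pdgfra and Dcn at 0 counts throughout. Neutrophil markers summed to at most 2.17 CPM, with S100a9, Mpo and Ngp at 0 counts, and lymphocyte (at most 0.132 CPM) and epithelial or endothelial markers (at most 0.452 CPM) were as low. One library stood apart: in CaP Zn0.8Mn replicate 1, mitochondrial genes took 7.88% of the counts, against 1.82% to 2.15% in the other 5 libraries. The part of this library's RNA composition in the results was not tested, so each result that rests on it is also given without it.

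Spp1 (ENSMUSG00000029304, chromosome 5: 104435118 to 104441050, plus strand, GRCm38) was among the most abundant transcripts of these cells. It read 12651 and 14905 CPM on CaP Zn0.8Mn0.1Li, 2345 and 13774 CPM on CaP Zn0.8Mn, against 9148 and 9749 CPM on CaP Zn. Both lithium alloy libraries and the second manganese alloy library lay above both CaP Zn libraries, as for 10.7% of the 13156 genes tested. The first manganese alloy library lay below all others, as for 41.9% of them. As a share of all counts, Spp1 took 1.23% (95% exact binomial interval 1.228% to 1.238%) and 1.49% (1.485% to 1.497%) on CaP Zn0.8Mn0.1Li. The manganese alloy libraries gave 0.237% (0.235% to 0.240%) and 1.34% (1.334% to 1.345%), and CaP Zn gave 0.961% (0.956% to 0.965%) and 0.960% (0.955% to 0.965%). Without molecular identifiers on the reads, these intervals hold counting error alone. Ranked per gene length (FPKM), Spp1 was the 4th most abundant gene in both CaP Zn0.8Mn0.1Li libraries, the 18th and the 5th on CaP Zn0.8Mn, and the 6th in both CaP Zn libraries. An annotated transcript of unknown coding status, Gm42793, overlaps the start of Spp1 on the same strand and was counted apart with 62 to 259 counts per library, against 35491 to 243761 for Spp1.

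Fn1 (ENSMUSG00000026193, chromosome 1: 71585520 to 71653200, minus strand), the matrix protein fibronectin that binds the same family of integrins as osteopontin, had 0 counts in all 6 libraries. A count of 0 allows up to 3 counts as a one-sided limit, which is 0.161 to 0.198 CPM depending on the library. Expression of fibronectin was therefore not detectable at this depth on any of the alloys.

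Mmp9 (ENSMUSG00000017737, chromosome 2: 164940780 to 164955850, plus strand), the gelatinase that macrophages and osteoclasts secrete, read 73.6 and 82.7 CPM on CaP Zn0.8Mn0.1Li, 6.67 and 70.5 CPM on CaP Zn0.8Mn, against 26.6 and 45.9 CPM on CaP Zn. As for Spp1, the lithium alloy libraries and the second manganese alloy library lay above both CaP Zn libraries (10.7% of all tested genes). The first manganese alloy library was lowest (41.9% of all tested genes). The CaP Zn libraries differed from each other by more than the lithium alloy libraries did, with group levels of 78.1 ± 6.42 CPM on CaP Zn0.8Mn0.1Li and 36.2 ± 13.7 CPM on CaP Zn (SD, n = 2 each).

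Adam8 (ENSMUSG00000025473, chromosome 7: 139978932 to 139992562, minus strand) encodes a disintegrin metalloproteinase of leukocytes that sheds cell surface proteins. It read 376 and 423 CPM on CaP Zn0.8Mn0.1Li, 199.8 and 388 CPM on CaP Zn0.8Mn, against 309 and 341 CPM on CaP Zn. The order of the 6 libraries was that of Spp1, over a narrower range: the lowest library, CaP Zn0.8Mn replicate 1, had 0.472 times the level of the highest, against 0.157 times for Spp1 and 0.0807 times for Mmp9.

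Mmp12 (ENSMUSG00000049723, chromosome 9: 7344381 to 7369499, plus strand), the elastase named for macrophages, was near the limit of use, with 48 and 28 counts on CaP Zn0.8Mn0.1Li, 15 and 19 on CaP Zn0.8Mn, against 36 and 21 on CaP Zn. These counts correspond to 2.90 and 1.71 CPM, 0.991 and 1.23 CPM, and 1.94 and 1.34 CPM in the same order of alloys. Libraries of the lithium alloy and of CaP Zn overlapped, and both manganese alloy libraries were below all 4 others. The share of all tested genes with this order was not computed. The gap was small, 19 counts in CaP Zn0.8Mn replicate 2 (exact Poisson 95% interval 11.4 to 29.7) against 21 in CaP Zn replicate 2. That interval also held the 28 counts of CaP Zn0.8Mn0.1Li replicate 2, but not the 36 and 48 counts of the other libraries. Counting error alone could therefore give this order. Mmp14 (ENSMUSG00000000957, chromosome 14: 54431612 to 54445364, plus strand), the membrane-type enzyme that activates the pro-form of gelatinase A, had 2 and 4 counts on CaP Zn0.8Mn0.1Li, 3 and 6 on CaP Zn0.8Mn, against 8 and 2 on CaP Zn. Its exact Poisson intervals overlapped in all 6 libraries, from 0.242 to 7.22 counts at the lowest count of 2 to 3.45 to 15.8 counts at the highest count of 8. Mmp14 did not pass the filter on low counts and was not tested.

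Timp1 (ENSMUSG00000001131, chromosome X: 20870166 to 20874735, plus strand), the inducible inhibitor that binds Mmp9, had 6 and 13 counts on CaP Zn0.8Mn0.1Li, 0 and 4 on CaP Zn0.8Mn, against 15 and 7 on CaP Zn. In sum this gave 19 counts on the lithium alloy and 4 on the manganese alloy, against 22 on CaP Zn. The gene lies inside the span of Syn1 on the opposite strand, which had 6 to 45 counts per library, and the sources used here do not say whether counting used strand, so reads of the 2 genes cannot be told apart with certainty. Timp2 (ENSMUSG00000017466, chromosome 11: 118301069 to 118355740, minus strand), the more constitutive inhibitor, read 4.77 and 4.28 CPM on CaP Zn0.8Mn0.1Li, 18.7 and 3.88 CPM on CaP Zn0.8Mn, against 4.09 and 4.29 CPM on CaP Zn. Here 5 libraries lay within 3.88 to 4.77 CPM, and the first manganese alloy library was 4.39 times their mean.

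**Figure D1:**
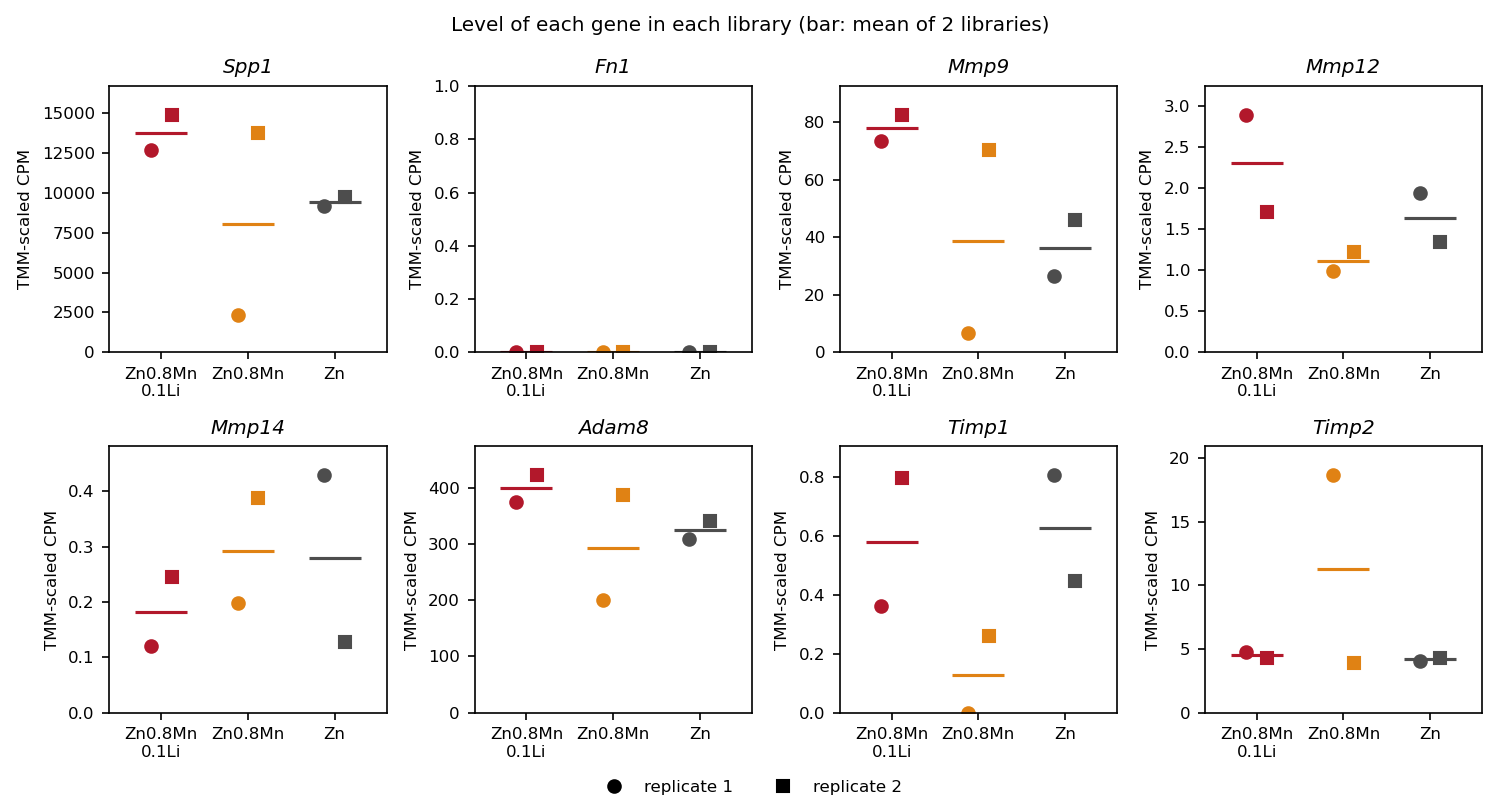
Level of each of the 8 genes (TMM-scaled CPM, linear axes from 0) in each library of CaP Zn0.8Mn0.1Li, CaP Zn0.8Mn and CaP Zn, with circles for replicate 1, squares for replicate 2 and a bar at the mean of the 2 libraries. The circle of CaP Zn0.8Mn is the lowest library for Spp1, Mmp9, Mmp12, Adam8 and Timp1 and the highest for Timp2, and Fn1 is at 0 throughout.

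Levels between genes were compared per gene length, as FPKM. Spp1 averaged 8297 ± 940 FPKM on CaP Zn0.8Mn0.1Li, 4858 ± 4910 on CaP Zn0.8Mn, against 5684 ± 275 on CaP Zn (SD, n = 2 each), and Adam8 followed with 85.5 ± 7.01, 62.6 ± 29.2 and 69.5 ± 5.01 FPKM on the same alloys. Adam8 was the most abundant of the 4 metalloproteinase mRNAs in every library, at 3.897 and 3.909 times the FPKM of Mmp9 on CaP Zn0.8Mn0.1Li, 22.8 and 4.20 times on CaP Zn0.8Mn, against 8.89 and 5.67 times on CaP Zn. Both genes were chosen on their higher lithium alloy values, so the lower ratio there is no separate result. Mmp9 supplied 98.0% and 98.8% of the summed FPKM of the 3 MMP genes on CaP Zn0.8Mn0.1Li, 91.7% and 98.8% on CaP Zn0.8Mn, against 95.7% and 98.4% on CaP Zn, so that Mmp12 and Mmp14 added little to it.

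The MMP side was also set against the inhibitors. Summed FPKM of Mmp9, Mmp12 and Mmp14 was 12.999 and 11.856 times that of Timp1 and Timp2 on CaP Zn0.8Mn0.1Li. The ratio was 0.428 and 15.7 on CaP Zn0.8Mn, against 4.01 and 8.22 on CaP Zn. Mmp9 made up 91.7% to 98.8% of the numerator. The higher ratio on the lithium alloy than on CaP Zn therefore repeats the Mmp9 contrast the genes were chosen on and is no separate result. The ratio was above 1 in 5 libraries and below 1 in CaP Zn0.8Mn replicate 1 (mitochondrial counts 7.88%), where Mmp9 was lowest and Timp2 highest. The denominators were small, between 1.28 and 1.98 FPKM in the other 5 libraries and 4.68 FPKM in that one, and the ratio is of mRNA, not of protein.

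**Figure D2:**
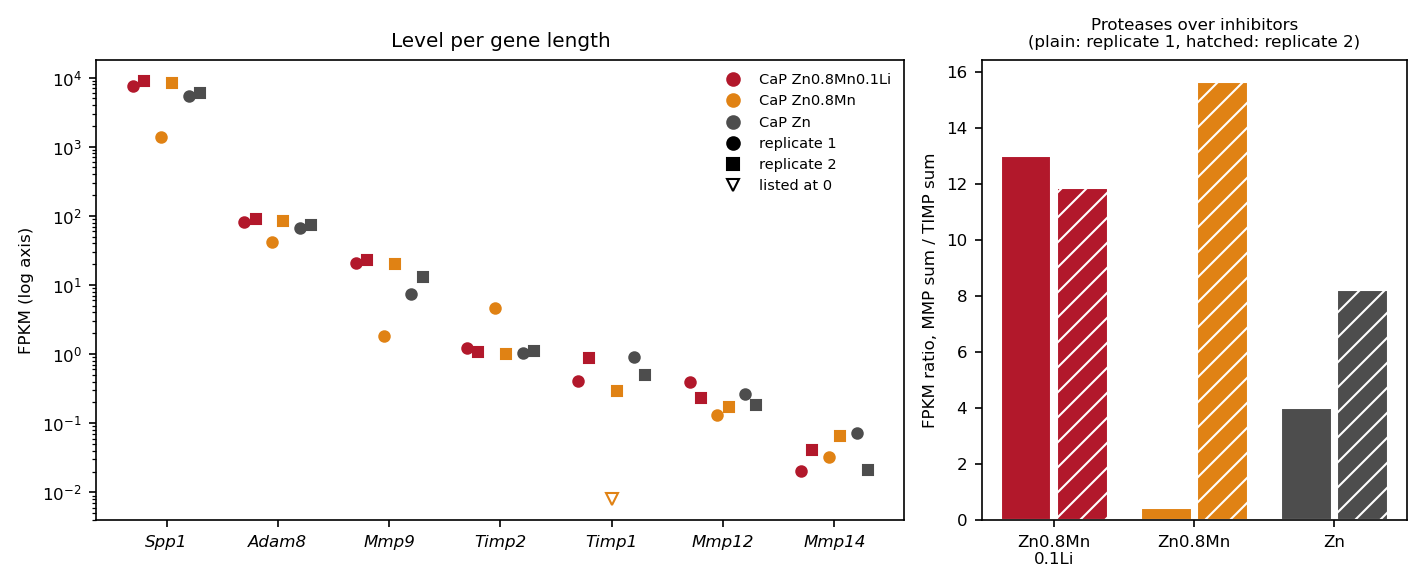
Left, FPKM of the 7 detected genes on a log axis in each library, coloured by alloy, with an open triangle where a library is listed at 0. Right, summed FPKM of Mmp9, Mmp12 and Mmp14 over summed FPKM of Timp1 and Timp2, 12.999 and 11.856 on CaP Zn0.8Mn0.1Li, 0.428 and 15.7 on CaP Zn0.8Mn, against 4.01 and 8.22 on CaP Zn. The gap between the lithium alloy and CaP Zn repeats the Mmp9 contrast the genes were chosen on.

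The joint addition of manganese and lithium, CaP Zn0.8Mn0.1Li against CaP Zn, is the contrast the genes were chosen on. On the lithium alloy Spp1 was 1.46-fold higher (a log2 fold change of 0.54), Mmp9 2.16-fold (1.11) and Adam8 1.23-fold (0.30). For these 3 of the 6 genes that passed the filter, both lithium alloy libraries lay above both CaP Zn libraries, as they did for 16.7% of all 13156 genes tested. No gene had both libraries below among the members, against 16.8% of all genes. Of all genes, 0% passed the edgeR test in this contrast, 29 had an unadjusted p under 0.05, and DESeq2 and limma-voom called 0. Without CaP Zn0.8Mn replicate 1, the folds were the same to 3 digits for Spp1 (1.46), 2.17 for Mmp9 and 1.23 for Adam8. That library belongs to neither group of this contrast, so the model nearly fixed these folds in advance. Their agreement is no sign of stability. Of the other 3, Mmp12 had a log2 fold change of 0.49 and Timp2 of 0.11, with overlapping libraries. Timp1 had -0.13, which turned to 0.32 without CaP Zn0.8Mn0.1Li replicate 1 and to 0.36 without CaP Zn replicate 1. Leaving out any 1 library, the log2 fold change of Spp1 lay between 0.42 and 0.65, that of Mmp9 between 0.77 and 1.56 and that of Adam8 between 0.21 and 0.37. The choice of these 3 genes fixed their direction here. The highest Mmp9 value came without CaP Zn replicate 2, whose 45.9 CPM was nearer to the lithium alloy.

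CaP Zn0.8Mn was set against CaP Zn to read the addition of manganese alone. The choice of genes did not use the manganese alloy libraries, although the CaP Zn libraries are shared with it. With all 6 libraries, none of the 6 tested members passed the edgeR quasi-likelihood test at an adjusted p under 0.05, and neither did any of the 13156 genes (0%; an unadjusted p was under 0.05 for 207, DESeq2 called 1 gene and limma-voom 0). Spp1 had a log2 fold change of -0.23 (SE 0.78, adjusted p = 0.903 with edgeR). Mmp9 had 0.09 (SE 0.97, adjusted p = 0.973 with edgeR), and Adam8 had -0.15 (SE 0.34, adjusted p = 0.861 with edgeR). For Mmp12 (-0.56), Timp1 (-2.21) and Timp2 (1.43) the edgeR adjusted p was 0.773. Timp1 and Mmp12 had both manganese alloy libraries below both CaP Zn libraries, a pattern that 12.8% of all tested genes showed, and no member had both above (12.5% of all genes).

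The 2 manganese alloy libraries lay on opposite sides of the CaP Zn mean for Spp1, Mmp9, Adam8 and Timp2. The share of all tested genes with this pattern was not computed, so whether it is particular to these genes is not known. In replicate 2, Spp1 was 1.46 times, Mmp9 1.94 times and Adam8 1.19 times the CaP Zn mean, and each lay above both CaP Zn libraries, as 32% of all tested genes did in that library. Mmp12, Timp1 and Timp2 lay below both CaP Zn libraries there, as did 32.8% of all tested genes. Its levels of Spp1 and Adam8 fell between those of the lithium alloy libraries, as for 32.2% of all tested genes. In replicate 1, Spp1 was 0.248 times, Mmp9 0.184 times, Adam8 0.614 times and Timp2 4.47 times the CaP Zn mean. This library was lowest of all 6 for Spp1, Mmp9, Mmp12, Adam8 and Timp1, as for 41.9% of all tested genes, and highest for Timp2, as for 42% of them. Spp1, Mmp9 and Timp1 were over 2-fold below the mean of the other 5 libraries there, against 18.2% of all tested genes, and Timp2 was over 2-fold above it, against 15.4%.

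For Spp1, Mmp9, Adam8 and Timp2 the direction followed the manganese alloy library that was kept. Without replicate 1, the log2 fold changes on CaP Zn0.8Mn against CaP Zn became 0.54 for Spp1 (SE 0.24), 0.97 for Mmp9 (SE 0.34), 0.25 for Adam8 (SE 0.12) and -0.11 for Timp2 (SE 0.30). Mmp12 (-0.43, SE 0.52) and Timp1 (-1.28, SE 0.92) stayed negative. None of the 6 passed in edgeR, each with an adjusted p of 0.967 or 0.985, while 0.0152% of all genes did. DESeq2 on those 5 libraries, an alternative chosen after seeing the data, gave Spp1 a log2 fold change of 0.55. The CaP Zn libraries, on whose lower values Spp1 was picked, are also in this fit, against a lone manganese alloy library. Without replicate 2, 5 of the 6 passed in edgeR: Spp1 (-2.02), Mmp9 (-2.44), Adam8 (-0.71) and Timp1 fell and Timp2 (2.15) rose, among 59.3% of all genes called. Mmp12 (-0.74) was not called. The fitted change of Timp1 is not a bound, since the remaining library had 0 counts. In both fits the lone manganese alloy library was assumed to vary like the other groups. Mmp9 also turned to -0.25 without CaP Zn replicate 1.

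CaP Zn0.8Mn0.1Li was set against CaP Zn0.8Mn to see what lithium changed in the presence of manganese. The CaP Zn0.8Mn0.1Li libraries, on whose high values Spp1, Mmp9 and Adam8 were chosen, are one arm of this test too. None of the 6 members passed in edgeR with all 6 libraries, nor did any gene (0%; an unadjusted p was under 0.05 for 316, DESeq2 called 3 genes and limma-voom 0). The log2 fold changes were 0.77 for Spp1 (SE 0.79, adjusted p = 0.682 with edgeR) and 1.02 for Mmp9 (SE 0.97), with 0.44 for Adam8, 1.05 for Mmp12, 2.09 for Timp1 and -1.32 for Timp2, these 5 at an edgeR adjusted p of 0.680. Mmp9, Mmp12 and Timp1 had both lithium alloy libraries above both manganese alloy libraries, against 17.1% of all tested genes, and no member had both below, against 17.5%. Set against the second manganese alloy library alone, without replicate 1, Spp1 differed by 0.00039 (SE 0.25), Mmp9 by 0.15 (SE 0.34), Adam8 by 0.04 (SE 0.12), Timp2 by 0.22 (SE 0.30), Mmp12 by 0.91 (SE 0.51) and Timp1 by 1.14 (SE 0.93), all with an edgeR adjusted p of 0.9998, while 0.0152% of all genes were called. That p does not show that the alloys acted alike. Without replicate 2, 5 of the 6 were called, Spp1 (2.56), Mmp9 (3.55), Adam8 (1.00) and Timp1 higher on the lithium alloy and Timp2 (-2.04) lower, among 61.5% of all genes. The 3 comparisons share libraries, so their values stand side by side and are not independent.

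**Figure D3:**
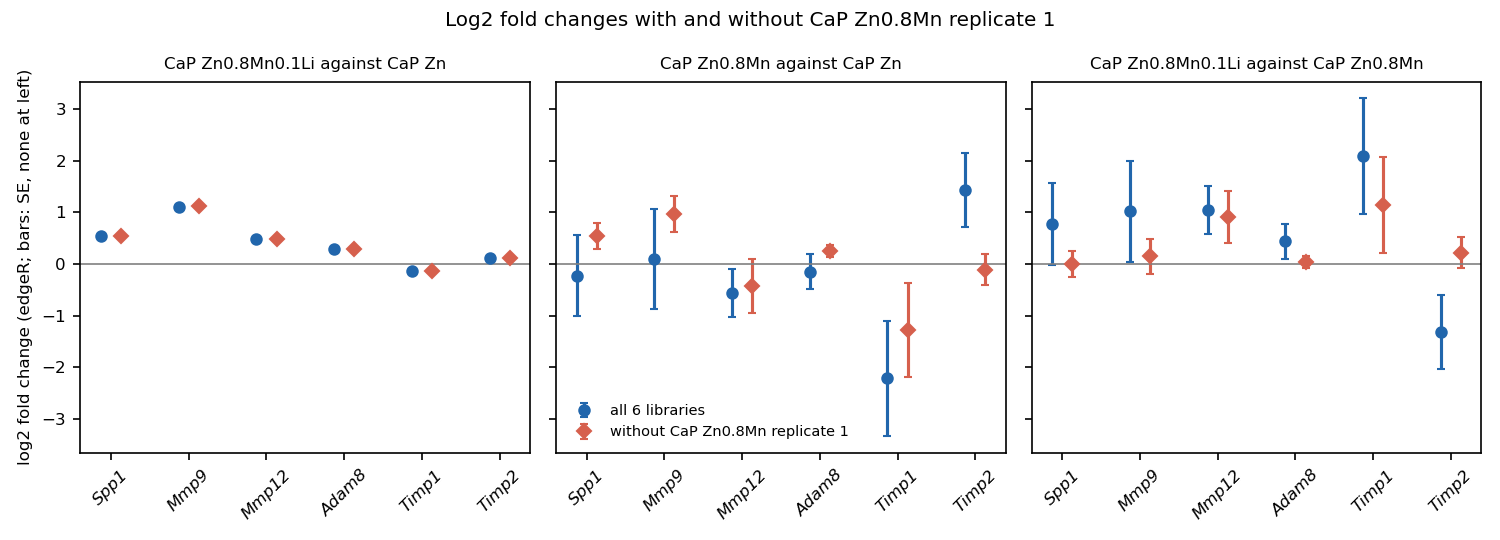
Log2 fold change (edgeR) of the 6 tested genes in each comparison, with its SE except in CaP Zn0.8Mn0.1Li against CaP Zn, on which the genes were chosen, with all 6 libraries (circles) and without CaP Zn0.8Mn replicate 1 (diamonds). In CaP Zn0.8Mn against CaP Zn, Spp1 is at -0.23 with all libraries and 0.54 without that one, and Timp2 at 1.43 and -0.11. The values of CaP Zn0.8Mn0.1Li against CaP Zn differ little between the fits, since the library left out belongs to neither group.

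The other genes of matrix turnover were read from lists chosen with earlier results of these data known, and 0 of their tested genes were called in any of the 3 comparisons with all 6 libraries. Of 17 other MMP genes, 3 were expressed well enough to test and 6 had 0 counts throughout. Mmp19 led them with 9.06 and 8.56 CPM on CaP Zn0.8Mn0.1Li, 8.59 and 7.11 on CaP Zn0.8Mn, against 7.31 and 10.2 on CaP Zn, and its libraries overlapped between all alloys. The collagenase gene Mmp13 had 0.129 CPM in 1 library and 0 counts in the rest, while gelatinase A (Mmp2) lay between 0.448 and 1.26 CPM and Mmp28 between 0.785 and 2.38 CPM.

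Of 17 other ADAM and ADAMTS genes 7 were tested, with a median log2 fold change of 0.09 on CaP Zn0.8Mn0.1Li against CaP Zn, where the median over all tested genes was 4.7e-05. Adam15 read 331 and 358 CPM on CaP Zn0.8Mn0.1Li, 201 and 348 on CaP Zn0.8Mn, against 292 and 326 on CaP Zn. Adam17, the sheddase that releases tumour necrosis factor, read 139 and 135, 375 and 145, and 151 and 148 CPM on the same alloys, with CaP Zn0.8Mn replicate 1 highest. Adam9 lay between 117 and 146 CPM in all libraries.

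Of 12 other protease inhibitors 3 were tested, and Timp3, Timp4 and the membrane inhibitor Reck had 0 counts. Cystatin C (Cst3), an inhibitor of cysteine cathepsins, read 904 and 819 CPM on CaP Zn0.8Mn0.1Li, 1064 and 949 on CaP Zn0.8Mn, against 837 and 975.4 on CaP Zn. Cystatin B (Cstb) read 301 and 281, 79.0 and 293.5, and 221 and 268 CPM. Cstb was thus lowest in CaP Zn0.8Mn replicate 1, as was Timp1, while Cst3 was highest there.

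Plasminogen activation is known as another route to matrix breakdown, and plasminogen itself (Plg) had 0 counts in all 6 libraries. All 5 tested genes of 7 were higher on CaP Zn0.8Mn0.1Li than on CaP Zn in direction (median log2 fold change 0.14, all tested genes 4.7e-05, 0 called). Libraries overlapped for Plau and Anxa2 but not for the rest, a separation that 16.7% of all tested genes showed. On CaP Zn0.8Mn against CaP Zn, 4 of 5 were lower (median -0.24, all tested genes 0.0048, 0 called). Without CaP Zn0.8Mn replicate 1, 5 of 5 were higher (median 0.14, all tested genes -0.0084). The shares of all tested genes higher or lower in direction were not computed. Urokinase (Plau) read 158 and 127 CPM on CaP Zn0.8Mn0.1Li, 248 and 138 on CaP Zn0.8Mn, against 103 and 164 on CaP Zn. The plasminogen-binding pair Anxa2 and S100a10 was abundant, Anxa2 at 548 to 1059 CPM and S100a10 at 282 to 609 CPM, both lowest in CaP Zn0.8Mn replicate 1. Of 8 other matrix-degrading enzymes 6 were tested, with a median of 0.20 on CaP Zn0.8Mn0.1Li against CaP Zn. The cathepsin gene Ctsl, a lysosomal cysteine protease, read 1219 and 1235 CPM on CaP Zn0.8Mn0.1Li, 376 and 1240 on CaP Zn0.8Mn, against 905.5 and 965 on CaP Zn. Its lithium alloy and second manganese alloy libraries lay above both CaP Zn libraries, as for 10.7% of all tested genes. The first manganese alloy library was lowest for Ctsl, as for 41.9% of all tested genes. Ctsb lay between 2091 and 2999 CPM and Ctss between 666 and 835 CPM.

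Receptors for osteopontin and fibronectin were present. Of 9 receptor genes 8 were tested, 4 of them higher and 4 lower on CaP Zn0.8Mn0.1Li than on CaP Zn (median log2 fold change 0.02, 0 called). Cd44, the hyaluronan and osteopontin receptor, read 295 and 281 CPM on CaP Zn0.8Mn0.1Li, 363 and 300 on CaP Zn0.8Mn, against 264 and 273 on CaP Zn. The integrin subunit gene Itgb1 lay between 240 and 289 CPM. Itga4, another subunit, read 292 and 271 CPM on CaP Zn0.8Mn0.1Li, 5118 and 316 on CaP Zn0.8Mn, against 379.5 and 354 on CaP Zn. Its lithium alloy libraries lay below both CaP Zn libraries, as for 16.8% of all tested genes, and below both manganese alloy libraries, as for 17.5%. CaP Zn0.8Mn replicate 1 lay far above all others, and this library was highest for 42% of all tested genes. Per gene length, the Spp1 ligand exceeded Cd44 by 176 and 218 times on CaP Zn0.8Mn0.1Li, 26.5 and 189 times on CaP Zn0.8Mn, against 143 and 147 times on CaP Zn. Spp1 was chosen on its higher lithium alloy values, so the higher ratio there is no separate result.

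Among 23 other matrix and matricellular proteins 8 were tested, and Sparc, Col3a1, Bgn, Dcn and Nid1 had 0 counts throughout. Galectin 3 (Lgals3) read 1013 and 922 CPM on CaP Zn0.8Mn0.1Li, 1062 and 1022 on CaP Zn0.8Mn, against 803 and 1070 on CaP Zn, and the laminin chain gene Lamc1 lay between 181 and 269 CPM. The granule proteoglycan gene Srgn, whose product carries proteases, read 312 and 340, 198 and 326, and 270 and 286 CPM. The 4 bone glycoprotein genes related to osteopontin (Ibsp, Dmp1, Dspp and Mepe) had 0 counts in all libraries. Of 8 processing and partner genes 6 were tested. On CaP Zn0.8Mn0.1Li against CaP Zn 5 were higher and 1 lower (median 0.05, all tested genes 4.7e-05, 0 called). Lrp1, the endocytic receptor that clears Mmp9, read 1092 and 1051 CPM on CaP Zn0.8Mn0.1Li, 2916 and 1016 on CaP Zn0.8Mn, against 957 and 1147 on CaP Zn. Cd63, a surface partner of Timp1, read 420 and 413, 273 and 442, and 343 and 372 CPM, and basigin (Bsg), named as an inducer of MMPs, lay between 558 and 1065 CPM.

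Of 18 transcription factor genes with textbook links to these promoters 17 were tested, 8 higher and 9 lower on CaP Zn0.8Mn0.1Li than on CaP Zn (median -0.0022, 0 called), and 7 higher and 10 lower on CaP Zn0.8Mn than on CaP Zn (median -0.04, 0 called). Junb, an AP-1 subunit, read 263 and 285 CPM on CaP Zn0.8Mn0.1Li, 63.4 and 273 on CaP Zn0.8Mn, against 213 and 282 on CaP Zn. Spi1, which encodes the myeloid factor PU.1, lay between 204 and 241 CPM, and Ets2 between 86.4 and 153 CPM.

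To place the 3 genes the set was built on, the 9761 other tested genes of at least 5 CPM were ranked by the root mean square (RMS) difference of their log2 CPM profile, centred on its own mean, from that of each gene. Over 6 libraries the nearest to Spp1 were Cox6a2 (0.0971), Ankrd33b (0.113) and Hmga1b (0.115), and the last can share reads with a near-identical copy, Hmga1. The nearest to Mmp9 were Wfdc17 (0.271), Gm14328 (0.339) and Uqcrb (0.341), and to Adam8 Glrx (0.0414), Znhit3 (0.0471) and H2-K1 (0.0571), of which H2-K1 belongs to a multigene family with similar sequences. Over the other 5 libraries the nearest were Gm9843 (0.0603), Slc15a3 (0.0632) and the metallothionein gene Mt1 (0.0678) to Spp1, Wfdc17 (0.0912), Qpct (0.151) and Id1 (0.176) to Mmp9, and Terf2ip (0.0172), H2-Q6 (0.0267) and Tmem81 (0.0268) to Adam8. Wfdc17 was nearest to Mmp9 both times, with 43.5 and 45.9 CPM on CaP Zn0.8Mn0.1Li, 6.01 and 41.9 on CaP Zn0.8Mn, against 13.2 and 25.7 on CaP Zn. Spp1 and Adam8 differed from each other by an RMS of 0.559 over 6 libraries and 0.131 over 5, Spp1 and Mmp9 by 0.415 and 0.358, and Adam8 and Mmp9 by 0.902 and 0.454. Over 5 libraries the inhibitor gene Timp2 was nearer than Mmp9 both to Spp1 (0.287) and to Adam8 (0.171). Over 6 libraries Timp2 was farther than Mmp9 from both (1.67 and 1.11). The distance counts the size of changes as well as their direction, and Timp2 varied little over the 5 libraries (3.88 to 4.77 CPM). In CaP Zn0.8Mn replicate 2 Timp2 was lowest of the 5, whereas Spp1, Mmp9 and Adam8 lay above both CaP Zn libraries there. Nearness of Timp2 over 5 libraries is therefore no shared direction. The shared direction of Spp1, Mmp9 and Adam8 on the lithium alloy was fixed by their choice. These distances describe 6 or 5 libraries that share their groups, and carry no p.

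**Figure D4:**
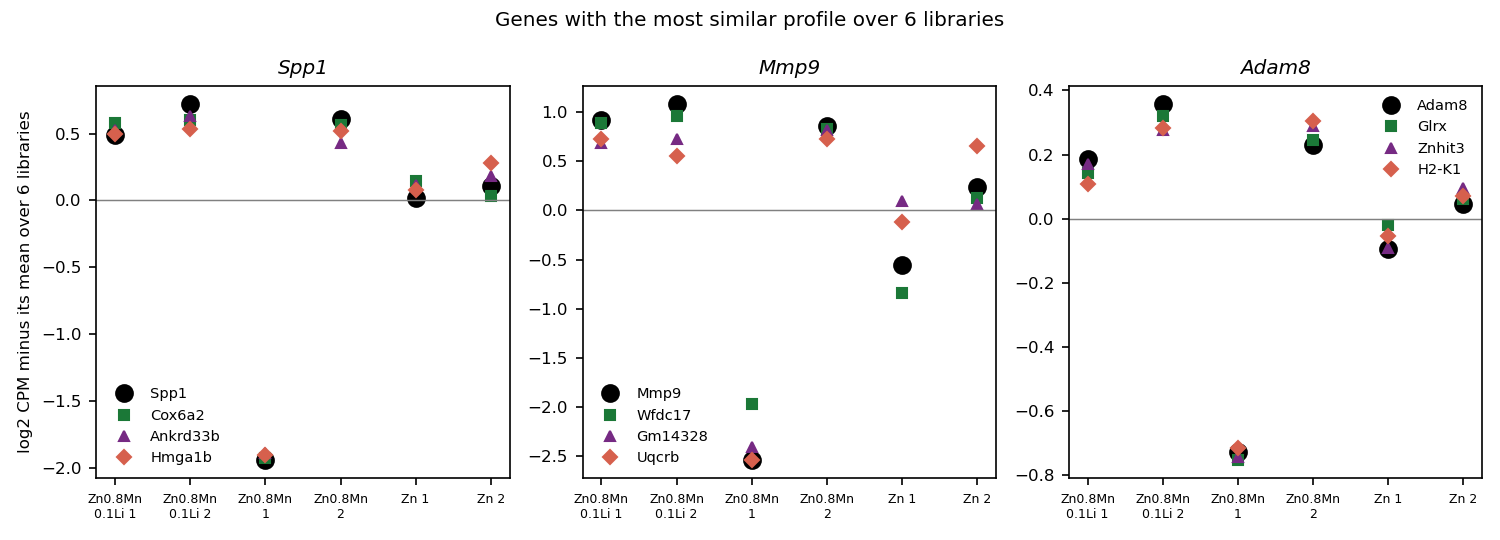
Log2 CPM of Spp1, Mmp9 and Adam8 (black circles) and of the 3 genes with the most similar profile over 6 libraries, each minus its own mean over the libraries and plotted without the prior count used for the ranking. The library at CaP Zn0.8Mn replicate 1 lies lowest in every panel, and Wfdc17 follows Mmp9 into the lower reading of CaP Zn replicate 1.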

How the data were processed

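RNA sequencing of polyadenylated RNA (Illumina TruSeq kit, per the labels' protocols) gave 6 libraries, grouped by the treatment label. The authors deposited whole-number counts per gene without normalization, and FPKM values, counts scaled to gene length and to a library size that comes to 0.976 to 1.06 times the count total. Per the submitters' processing notes the build was mm9. Positions in the deposited tables nevertheless equal those of GENCODE M21 (GRCm38) for 98.3% of shared identifiers and for all 8 genes described. For aligner, counter and strand setting, nothing is given in the sources used here. The tables held 0 columns of other samples.

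Tests on the counts used edgeR 4.0.16 and its quasi-likelihood F test (R 4.3.3; TMM, filterByExpr, robust group-means fit over all 6 libraries), two-sided, with Benjamini-Hochberg adjustment over all 13156 tested genes and a threshold of 0.05. The SE is the log2 fold change over the root of its F statistic. The fit was tested on simulated counts, with means and spread taken from the 5 libraries other than CaP Zn0.8Mn replicate 1. That simulation held no library that stands apart, so it does not cover the fit with all 6 libraries. Alternatives were RLE and library-total scaling, DESeq2 1.42.0, limma-voom (limma 3.58.1), no filter, the replicate number as a block, the compared libraries only, each library left out (with the same genes) and log2(FPKM + 1) or log2(FPKM + 0.1). DESeq2 on 5 libraries and a fit without Spp1 in the library totals were added after seeing the data. Low counts carry exact Poisson and shares exact binomial 95% intervals. Genes named are all members, all macrophage markers, the 3 tested genes of highest mean CPM in each list, and the 3 nearest profiles (prior count 3). One gene this rule names is not reported here. Mmp13 and the genes named for having 0 counts were picked after their values were seen. The members and lists were chosen with earlier results of these data known. Replicate numbers were given in accession order and pair no samples.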

Additional observations from a re-analysis of the deposited data

How the results depend on the processing

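On CaP Zn0.8Mn0.1Li against CaP Zn, Spp1, Mmp9, Mmp12, Adam8 and Timp2 turned under no alternative run, which for Spp1, Mmp9 and Adam8 was fixed by their choice and is no sign of stability. Genes called (0 in each comparison with all libraries) became 12 there with DESeq2 on 5 libraries and ranged from 0 to 0 with 1 library left out. For CaP Zn0.8Mn against CaP Zn they became 1 with DESeq2, 1 with no filter and 5 with DESeq2 on 5 libraries (1 member), and ranged from 0 to 7808 with 1 library left out (members 0 to 5). Between CaP Zn0.8Mn0.1Li and CaP Zn0.8Mn they became 3 with DESeq2, 1 with no filter and 3 with DESeq2 on 5 libraries, and ranged from 0 to 8096 (members 0 to 5).

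With 1 library left out, the log2 fold changes on CaP Zn0.8Mn against CaP Zn ranged from -2.02 to 0.54 for Spp1, -2.44 to 0.97 for Mmp9, -0.71 to 0.25 for Adam8 and -0.11 to 2.15 for Timp2. Between CaP Zn0.8Mn0.1Li and CaP Zn0.8Mn, Timp2 ranged from -2.04 to 0.22, and on CaP Zn0.8Mn0.1Li against CaP Zn Timp1 from -0.79 to 0.36. On CaP Zn0.8Mn against CaP Zn, Mmp9 turned to -0.67 with limma-voom, -0.49 with log2(FPKM + 1) and -0.67 with log2(FPKM + 0.1). DESeq2 on 5 libraries turned Spp1 (0.55), Adam8 (0.25) and Timp2 (-0.11) there, and Spp1 (-0.00023) and Timp2 (0.22) between CaP Zn0.8Mn0.1Li and CaP Zn0.8Mn. Of these 5, all but Spp1 between CaP Zn0.8Mn0.1Li and CaP Zn0.8Mn also turned in edgeR without CaP Zn0.8Mn replicate 1, where that value was 0.00039. For the other turns the cause was not tested.

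With the replicate number as a block, which pairs no samples here, Mmp9 on CaP Zn0.8Mn against CaP Zn turned to -0.37 and 0 genes were called in each comparison. Deviations of same-numbered libraries correlated at -0.16 (CaP Zn0.8Mn0.1Li and CaP Zn), 0.263 (CaP Zn0.8Mn and CaP Zn) and -0.0947 (CaP Zn0.8Mn0.1Li with CaP Zn0.8Mn). Depth limits Fn1, Mmp14, Timp1 and Mmp12, whose counts stayed at or under 48 per library.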
